A study of Homo sapiens with 12 samples.

Results

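The genes of the core autophagy machinery and its cargo receptors were examined in HLE-B3, a human lens epithelial line immortalized in culture. The 36 members, taken by gene symbol from the deposited tables of 58735 genes, were chosen for their known roles in the pathway. RNA was sequenced from 4 groups of 3 biological replicates. The groups were untreated wild-type cells (WT_0h), wild-type cells treated with 200 μM H2O2 for 12 h (WT_12h), untreated Atg7KO cells (Atg7KO_0h) and Atg7KO cells given the same H2O2 treatment (Atg7KO_12h). All cells grew in the same medium, and the ATG7 KO cells were made by CRISPR/Cas9 with puromycin selection and picking of individual clones. The labels do not say which clone or clones were sequenced, so the genotype and the choice of clone cannot be told apart. The untreated cells carry the label 0 h, and H2O2 and the passage of 12 h in culture cannot be told apart either. A lower level in a bulk library can mean fewer cells with the transcript or less of it per cell, which cannot be told apart.

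Autophagy encloses cytoplasm in a double membrane, the autophagosome, which then fuses with lysosomes. A kinase complex built on ULK1 starts the process, and a lipid kinase complex built on PIK3C3 and BECN1 marks the membrane. ATG9A and the ATG2 proteins feed lipid into the membrane, and the WIPI proteins bind it where it is marked. ATG7 is the E1-like enzyme that activates both ATG12 and the ATG8 proteins (the LC3 and GABARAP proteins), and with ATG3, ATG5, ATG10 and ATG16L1 it places the ATG8 proteins on the membrane. The ATG4 proteases trim the ATG8 proteins and release them again. Receptors such as SQSTM1 (p62), NBR1, OPTN, CALCOCO2 and TAX1BP1 bind ubiquitin on the cargo and an ATG8 protein on the membrane. The lens depends on such clearance for its transparency, and SQSTM1 is itself degraded by autophagy, so its protein is widely read as a gauge of the flux. Only mRNA was measured here.

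Libraries held 15602183 to 17659496 reads assigned to genes, of which the 36 members took 0.251% to 0.294%. Untreated ATG7 KO replicate 1 stood apart. Across genes, its log2 counts had a mean Pearson r of 0.974 with the other two replicates, against 0.991 in the other 3 groups, and its deviation from the group mean fell with gene length (Spearman rho -0.359, against -0.059 to 0.042 in those groups). Of the 35 members tested, 31 differed more between this library and the mean of the other two than those differed from each other, from -1.21 for GABARAP to 0.84 for GABARAPL2 on the log2 scale. Counts of members, and the values of called members, that rest on it are therefore given with and without it. Of 8 markers of lens epithelium, GJA1 and CDH2 were above 1 FPKM (fragments per kilobase of gene, scaled to library size) in all 12 libraries, PAX6 had 0.505 to 1.35 FPKM, and FOXE3, CRYAA, SOX2 and CDH1 were at or near 0. The summed lens epithelium markers were 186 to 196 FPKM in untreated WT, 142 to 149 in treated WT, 178 to 209 in untreated ATG7 KO and 157 to 164 in treated ATG7 KO libraries. The sum followed CDH2, whose mean went from 162.5 to 99.0 FPKM in WT and from 172.5 to 109 FPKM in ATG7 KO cells, whereas GJA1 went up, from 26.1 to 43.5 and from 23.9 to 50.6 FPKM, and CRYAB from 0.172 to 1.65 and from 0.0119 to 0.940 FPKM. Of 4 mesenchymal markers, VIM, COL1A1 and FN1 were above 1 FPKM throughout, and the sum of the 4 was 1090 to 1100, 622 to 653, 768 to 845 and 522 to 535 FPKM in the same order. Their part in the results was not tested.

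Sequences are shown for the 2 members that were called higher in treated WT cells and have an antioxidant response element core upstream, and for SQSTM1, whose mRNA the study also assayed by qPCR. The RefSeq promoter table (GRCh38.p14) holds 32 of the 36 members with 39 promoters, and windows from 250 bases before to 50 bases after each start were searched on both strands. The core TGACNNNGC, known from NRF2 binding sites, was found in 3 of the 32 members (ATG101, MAP1LC3B and CALCOCO2), or 7.69% of member promoters against 13.3% of all 35116 promoters. The third holder, CALCOCO2, fell by 0.34 on the log2 scale in treated WT cells. A link between the motif and the response was not tested. The E-box core CACGTG, known from TFEB and TFE3 binding sites, was found in ATG3 and ATG14, or 5.13% of member promoters against 7.26% of all. Members therefore did not hold either motif at a higher share than promoters at large. The ATG101 window below is chr12:52069728-52069977 on the plus strand and the MAP1LC3B window is chr16:87392086-87392335 on the plus strand, each covering the 250 bases before the start, and capitals mark the TGACNNNGC match.
ATG101 promoter: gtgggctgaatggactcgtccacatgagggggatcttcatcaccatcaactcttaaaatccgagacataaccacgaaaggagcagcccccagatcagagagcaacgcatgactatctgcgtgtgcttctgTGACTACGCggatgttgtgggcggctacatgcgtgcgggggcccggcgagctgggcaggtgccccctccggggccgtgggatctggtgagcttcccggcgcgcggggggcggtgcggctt
MAP1LC3B promoter: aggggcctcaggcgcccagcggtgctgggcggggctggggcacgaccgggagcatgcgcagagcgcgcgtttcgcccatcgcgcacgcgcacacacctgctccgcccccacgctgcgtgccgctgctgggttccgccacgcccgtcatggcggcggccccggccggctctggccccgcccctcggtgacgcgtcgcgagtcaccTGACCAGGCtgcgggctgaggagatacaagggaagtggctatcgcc
The match begins at position -120 in ATG101 and at -46 in MAP1LC3B, counted from the start site. The primers below read SQSTM1 mRNA across the junction of exons 6 and 7 of 8 (ENST00000389805.8), inside the coding sequence, at chr5:179833160-179833178 and chr5:179833593-179833615 (GRCh38). Capitals are not used in them.
SQSTM1 qPCR forward: aagccgggtgggaatgttg
SQSTM1 qPCR reverse: cctgaacagttatccgactccat
Of the 16 annotated SQSTM1 transcripts, 4 hold the forward site and 2 the reverse site, whereas the read counts below sum over the whole gene. By qPCR, scaled to untreated cells, the paper reports p62 mRNA as significantly increased in ATG7 KO cells under H2O2. That assay covered several times, whereas the treated libraries are all from 12 h. The closest quantity in the counts is the difference of the H2O2 responses, ATG7 KO minus WT on the log2 scale. For SQSTM1 it was -0.11 (adjusted p = 0.41, quasi-likelihood test of edgeR), and -0.06 (adjusted p = 0.434) without untreated ATG7 KO replicate 1. SQSTM1 was also not called higher in treated ATG7 KO than in treated WT cells. The reason for this difference between the assays was not tested.

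The targeted gene, ATG7 (ENSG00000197548, chr3:11272309-11557665, plus strand), was not lower in the libraries labelled ATG7 KO. It had 2.81, 2.64 and 2.21 FPKM in untreated WT and 1.99, 1.91 and 1.98 FPKM in treated WT libraries. In the KO line it had 3.78, 3.42 and 3.43 FPKM in untreated ATG7 KO and 2.11, 2.12 and 2.35 FPKM in treated ATG7 KO libraries, so all 3 untreated ATG7 KO values and all 3 treated ones lay above their WT counterparts. The log2 fold change of ATG7 KO over WT, with its standard error (SE), was 0.47 (SE 0.12, adjusted p = 0.0348) in untreated and 0.15 (SE 0.09, adjusted p = 0.135) in treated cells by the quasi-likelihood test of edgeR, adjusted by Benjamini-Hochberg. Without untreated ATG7 KO replicate 1 the untreated difference was 0.43 (adjusted p = 6.02e-06) and passed the threshold. Counts over a whole gene do not read a small change made by Cas9, and these counts cannot check the label. The paper reports that its picked clones were checked for the loss of ATG7 at the protein level, by western blot. Of the exon bases of ATG7, 18.1% also lie in exons of other genes, mainly VGLL4 on the opposite strand, and the strand setting of the counting is not given in the sources used here.

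Levels per gene length spanned from receptors and ATG8 genes at the top to members with few reads. In untreated WT cells OPTN (40.6 ± 1.41 FPKM, SD, n = 3), NBR1 (34.9 ± 0.528) and SQSTM1 (34.1 ± 1.01) led the 36 members, and NBR1 and SQSTM1 differed by less than the sum of their SDs. GABARAPL2 (27.1 ± 1.49 FPKM) followed. The median member had 10.2 FPKM, and 33 of 36 were above 1 FPKM. SQSTM1 led after treatment, with 54.2 ± 1.33 FPKM in WT and 52.4 ± 0.761 FPKM in ATG7 KO cells. MAP1LC3A, another LC3 gene, had 0 to 5 reads per library and was left out of every test by the filter on low counts, which leaves 35 members tested. GABARAP had 0.482 to 1.29 FPKM, but 55.7% of its exon bases lie in exons of other genes, so its level is uncertain. Such shared bases made up 38.8% of ATG9A, 28.1% of WIPI1, 22% of SQSTM1, 19.2% of ATG101, 17.1% of BECN1 and 15% of ATG4D. ATG10, with 6.86% shared, had 54 to 213 reads per library and overlaps RPS23 on the opposite strand, which had a mean of 4080. What these overlaps add to the values was not tested. MAP1LC3B2, a near copy of MAP1LC3B, had 21 to 82 reads per library, and 15.1% of its 50-base stretches also occur in MAP1LC3B, so its values are uncertain too.

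**Figure D1:**
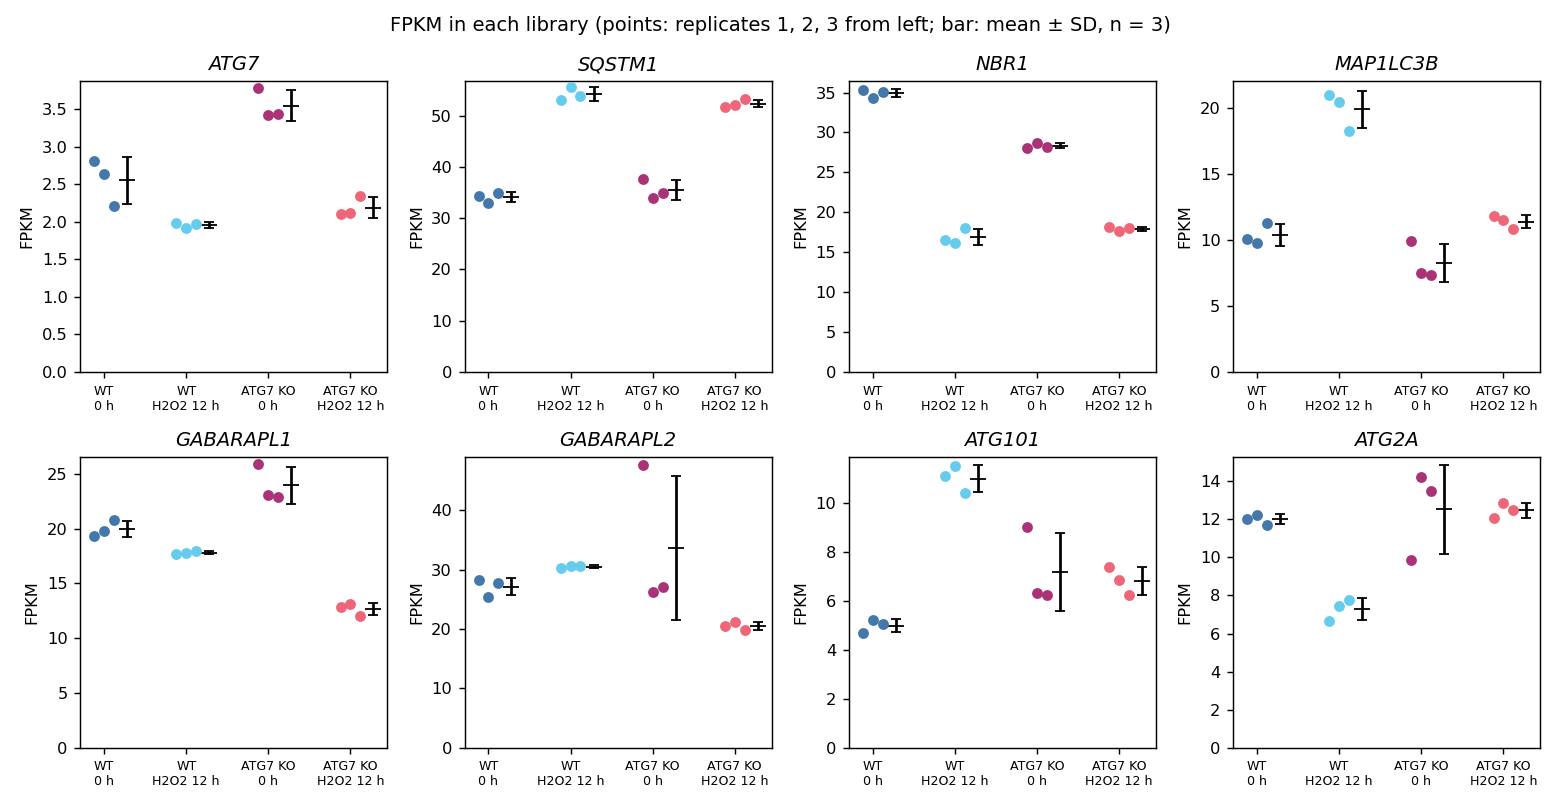
FPKM of 8 members in each of the 12 libraries (points, replicates 1 to 3 from left in each group) with the mean and SD beside them, on axes that start at 0. SQSTM1 was higher and NBR1 lower in every treated library of both lines, MAP1LC3B and ATG101 reached their highest values in treated WT libraries, and untreated ATG7 KO replicate 1 lies away from its other two replicates for GABARAPL2, ATG101 and ATG2A.

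The first comparison asked how the machinery changed in WT cells treated with H2O2. A gene was called at an adjusted p under 0.01. Of the 35 members tested, 25 were called (71.4%, against 61% of all 15913 genes tested), 8 higher (30.9% of all genes were) and 17 lower (30.1% of all genes were). The median log2 fold change over members was -0.13, against -0.01 over all genes. Values of treated and untreated libraries did not overlap for 27 of the 35, or 77.1%, against 71.4% of all genes.

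In the initiating ULK complex, ATG101, the HORMA-domain partner of ATG13, was the only one of 5 members called higher. ATG101 had 4.70, 5.23 and 5.05 FPKM in untreated WT and 11.1, 11.5 and 10.4 FPKM in treated WT libraries. All 3 treated values lay above all 3 untreated ones, and ATG101 rose by 1.13 (SE 0.08, adjusted p = 8.94e-17) on the log2 scale, a 2.21-fold ratio of mean FPKM. ULK2, the paralog of ULK1, and RB1CC1 (FIP200), the scaffold, fell by 0.39 and 0.74 on the log2 scale. ULK2 had 7.12, 6.38 and 6.52 FPKM in untreated WT and 5.54, 4.72 and 5.02 FPKM in treated WT libraries, without overlap. ULK1 (-0.12) and ATG13 (-0.01), which regulates the kinase, were not called.

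In the lipid kinase complex the catalytic subunit PIK3C3 fell by 0.67, its regulatory partner PIK3R4 by 0.38 and the autophagy-specific subunit ATG14 by 0.36 on the log2 scale. BECN1 (0.00) and UVRAG (0.06), the subunit of the endosomal form, were not called. All 5 members that supply or mark the membrane were called. The lipid transfer proteins ATG2A and ATG2B fell by 0.73 and 0.95, the scramblase ATG9A by 0.40 and WIPI1 by 0.91, while WIPI2, the WIPI protein that recruits ATG16L1, rose by 0.36. ATG2B had 2.06, 2.03 and 2.25 FPKM in untreated WT and 1.08, 1.05 and 1.16 FPKM in treated WT libraries, and ATG2A had 12.0, 12.2 and 11.7 FPKM in untreated WT and 6.67, 7.43 and 7.76 FPKM in treated WT libraries. Neither gene's groups overlapped, with standard errors of 0.09 and 0.06 (adjusted p = 7.75e-14 and 1e-15, edgeR's quasi-likelihood test).

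Among the 10 conjugation enzymes and ATG4 proteases, 2 rose and 3 fell. The protease ATG4D rose by 0.46 and ATG16L1 by 0.24. The protease ATG4C fell by 1.02 (SE 0.10, adjusted p = 4.87e-12), the E2-like enzyme ATG10 by 0.90 and ATG7 by 0.39. ATG4C had 6.79, 6.50 and 7.21 FPKM in untreated WT and 3.13, 3.17 and 3.81 FPKM in treated WT libraries. ATG10 had 1.57, 1.06 and 0.930 FPKM in untreated WT and 0.584, 0.679 and 0.640 FPKM in treated WT libraries, and for both genes every treated value lay below every untreated one. The others, 0.14 for ATG3, -0.07 for ATG4A, -0.12 for ATG4B, -0.13 for ATG5 and -0.0011 for ATG12, were not called. The ATG16L1 call was lost without untreated replicate 1, untreated replicate 2 or treated replicate 2 (adjusted p = 0.0276, 0.0375 and 0.0715).

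In the ATG8 family MAP1LC3B, the gene of the LC3B protein used to count autophagosomes, rose by 0.93 (SE 0.06, adjusted p = 1.21e-18). It had 10.1, 9.81 and 11.3 FPKM in untreated WT and 21.0, 20.5 and 18.3 FPKM in treated WT libraries, a 1.92-fold ratio without overlap. Its near copy MAP1LC3B2 rose by 1.24 (adjusted p = 1.47e-05), from 0.942, 0.985 and 0.797 FPKM to 2.04, 1.73 and 2.70 FPKM. GABARAPL2 rose by 0.16 and GABARAPL1 fell by 0.17, and GABARAP (0.20) was not called. The small changes of GABARAPL1 and GABARAPL2 each lost their call under several other settings and without single libraries. For GABARAPL2 the value ran from 0.11 without untreated WT replicate 2 to 0.18 without untreated replicate 1 among the left-out libraries, with adjusted p up to 0.0819.

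All 5 receptors were called. SQSTM1 (ENSG00000161011, chr5:179806398-179838078, plus strand) rose by 0.66 (SE 0.04, adjusted p = 7.5e-19), from 34.4, 33.0 and 35.0 FPKM to 53.0, 55.6 and 53.9 FPKM, and no treated value lay within the untreated range. NBR1, the receptor most like SQSTM1 in domain order, fell by 1.05 (SE 0.05, adjusted p = 6.42e-25), from 35.4, 34.3 and 35.1 FPKM to 16.5, 16.1 and 18.1 FPKM. The mitophagy and xenophagy receptors OPTN fell by 0.17, CALCOCO2 by 0.34 and TAX1BP1 by 0.28. Beyond a log2 fold change of 1, with a mean FPKM above 1 in at least 1 group, were 4 members (ATG101, MAP1LC3B2, ATG4C and NBR1), or 11.4% against 12.5% of all genes. With a correction for gene length, the calls of ATG7, GABARAPL2, OPTN, TAX1BP1 and ULK2 were lost and ATG3 (0.22, adjusted p = 0.00159) and ATG12 (0.21, adjusted p = 0.000486) were called higher, and in the fit of all 12 libraries those of ATG9A, ATG16L1, GABARAPL1, GABARAPL2 and OPTN were (adjusted p from 0.059 to 0.459).

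**Figure D2:**
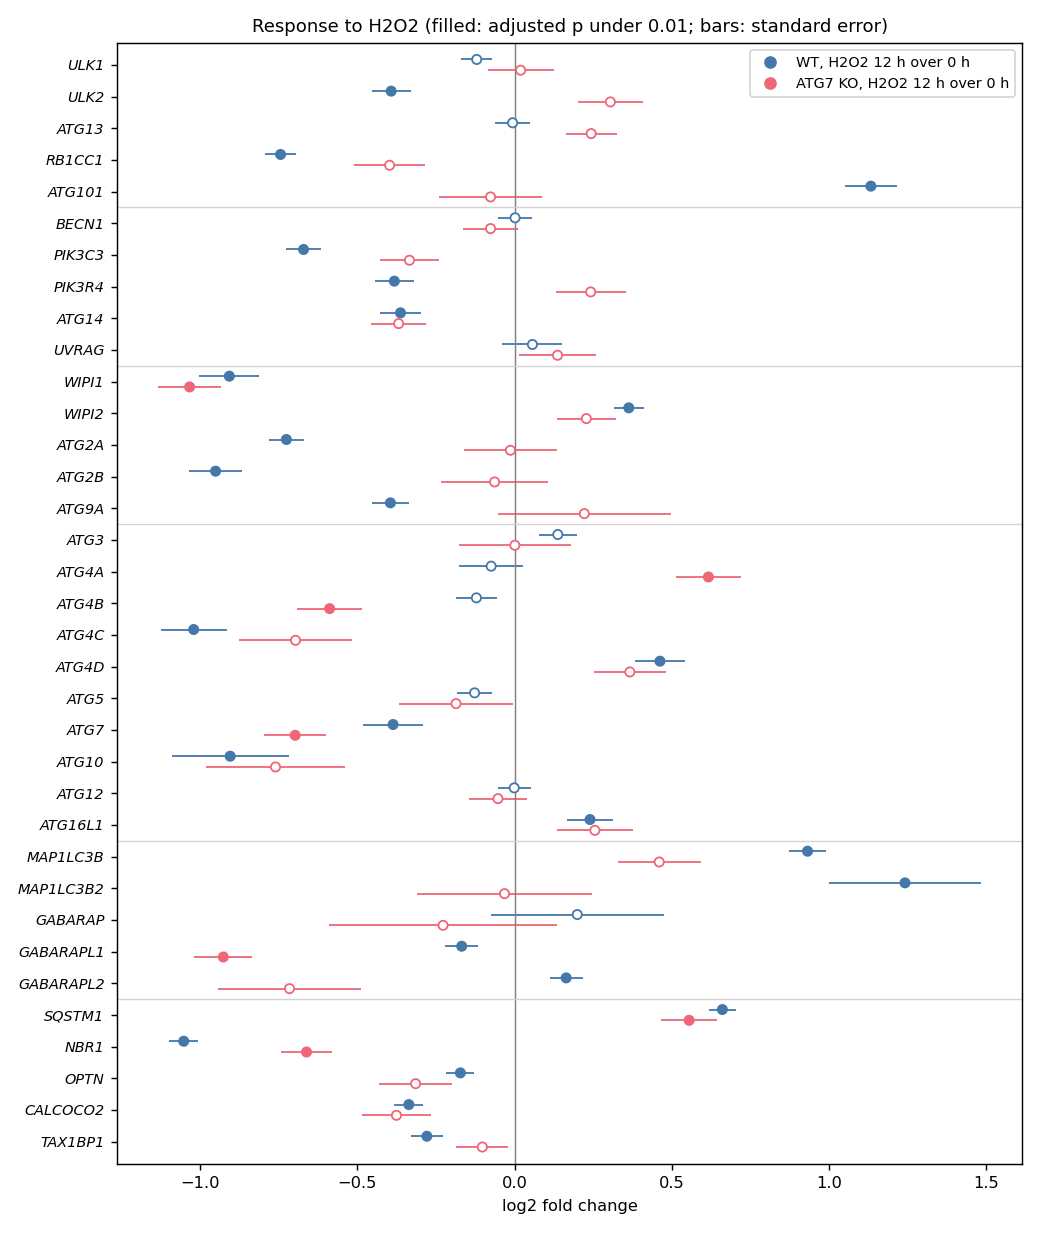
Log2 fold change of treated over untreated libraries (x axis, with standard error) for the 35 tested members, grouped by role from the ULK complex at the top to the receptors at the bottom, in WT and ATG7 KO cells. Filled points have an adjusted p under 0.01, 25 members in WT and 7 in ATG7 KO cells, and SQSTM1 lies right of 0 and NBR1 left of 0 in both.

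In ATG7 KO cells the same treatment gave 7 called members of 35 (20%, against 26% of all 15475 genes), 2 higher (13.6% of all genes were) and 5 lower (12.4% of all genes were), with a median log2 fold change of -0.08 over members and -0.03 over all genes. Values did not overlap for 22 of the 35, or 62.9%, against 59.6% of all genes, and WIPI1 was the 1 member also beyond a log2 fold change of 1 (2.86%, against 11.2% of all genes). Without untreated ATG7 KO replicate 1 the members called were 22 (62.9%, against 58.4% of all genes), 8 higher and 14 lower, and the 7 remained among them. Of all genes called in that fit, 51% were higher. Values then did not overlap for 26 (74.3%, against 75.5% of all genes), the median was -0.07, against -0.003 over all genes, and WIPI1 was again the 1 member beyond a log2 fold change of 1 (2.86%, against 11.8%). The number called in this comparison thus differed by over 1.5 times with and without that library, and a count of 7 against 25 in WT cells is not a measure of how the lines differ.

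WIPI1, which binds the phosphoinositide made by PIK3C3, fell by 1.03 (SE 0.10, adjusted p = 0.000284) on the log2 scale. It had 8.09, 8.61 and 8.78 FPKM in untreated ATG7 KO and 3.97, 4.15 and 4.37 FPKM in treated ATG7 KO libraries, without overlap. In WT cells it fell by 0.91, from 7.66, 6.58 and 7.75 FPKM to 4.07, 3.67 and 3.999 FPKM. GABARAPL1 fell by 0.93 (SE 0.09, adjusted p = 0.000335). GABARAPL1 had 25.9, 23.1 and 22.9 FPKM in untreated ATG7 KO and 12.8, 13.1 and 12.0 FPKM in treated ATG7 KO libraries, which did not overlap. ATG7 fell by 0.70 (adjusted p = 0.00149) and the protease ATG4B, which trims most ATG8 proteins, by 0.59 (adjusted p = 0.00371). NBR1 fell by 0.66 (SE 0.08, adjusted p = 0.000786), from 28.1, 28.7 and 28.2 FPKM to 18.2, 17.69 and 18.0 FPKM. The 2 genes called higher were ATG4A, the protease with a preference for GABARAP proteins, at 0.62 (SE 0.10, adjusted p = 0.00323), and SQSTM1 at 0.56 (SE 0.09, adjusted p = 0.00256). SQSTM1 had 37.7, 33.9 and 35.0 FPKM in untreated ATG7 KO and 51.8, 52.1 and 53.2 FPKM in treated ATG7 KO libraries, so its treated values were all above its untreated ones, and ATG4A had 6.07, 5.35 and 5.37 FPKM in untreated ATG7 KO and 8.94, 8.05 and 8.82 FPKM in treated ATG7 KO libraries.

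SQSTM1 was called higher in both lines, and ATG7, GABARAPL1, NBR1 and WIPI1 were called lower in both. Without untreated ATG7 KO replicate 1, 4 members were called higher in both (ATG4D, MAP1LC3B, SQSTM1 and WIPI2) and 12 lower in both. Of all genes 61% were called in WT cells and 58.4% in ATG7 KO cells in that fit. The share of all genes called alike in both was not counted, so these counts describe no trait of the members. With that library left out ULK2 fell in WT and rose in ATG7 KO cells (0.22, adjusted p = 0.00021), and GABARAPL2 rose in WT and fell in ATG7 KO cells (-0.39, adjusted p = 4.13e-12). Without that library WIPI1 had -1.07, GABARAPL1 -0.88, NBR1 -0.68, ATG7 -0.66, ATG4B -0.51, ATG4A 0.67 and SQSTM1 0.59. In that fit MAP1LC3B rose by 0.61 (adjusted p = 6.54e-19), against 0.46 (adjusted p = 0.0282) with all libraries. It had 9.97, 7.51 and 7.35 FPKM in untreated ATG7 KO and 11.8, 11.5 and 10.9 FPKM in treated ATG7 KO libraries, which did not overlap. The calls of ATG4A and SQSTM1 were each lost when any of the 5 libraries other than that one was left out, with log2 fold changes of 0.58 to 0.67 and 0.52 to 0.57. ATG4B lost its call without any treated replicate or untreated replicate 2, ATG7 without treated replicate 1 or 2 (adjusted p = 0.0143 and 0.0138), and NBR1 without treated replicate 2 or 3 (adjusted p = 0.0105 and 0.0103).

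The comparison of treated ATG7 KO with treated WT cells, which the study centred on, does not use untreated ATG7 KO replicate 1. Of 35 members, 20 were called (57.1%, against 55.6% of all 15909 genes), 10 higher (27.7% of all genes were) and 10 lower (27.9% of all genes were). The median was -0.03, against -0.0022 over all genes. MAP1LC3B2 was the 1 member to lie beyond a log2 fold change of 1, or 2.86% against 7.46% of all genes, and 22 of the 35 did not overlap between the lines (62.9%, against 68% of all genes). Members thus did not stand out from the background in number, and they are described by role.

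Of the 5 tested ATG8 genes, 4 were called lower in treated ATG7 KO cells (80%, against 27.9% of all genes). In the other direction 0 were called, against 27.7% of all genes. MAP1LC3B2 shares sequence with MAP1LC3B, so their values are not independent. MAP1LC3B was lower, at -0.81 (SE 0.05, adjusted p = 1.46e-14) on the log2 scale, with 11.8, 11.5 and 10.9 FPKM in treated ATG7 KO against 21.0, 20.5 and 18.3 FPKM in treated WT libraries. MAP1LC3B2 was lower, at -1.15 (SE 0.24, adjusted p = 0.000142), with 0.694, 1.24 and 1.01 FPKM against 2.04, 1.73 and 2.70 FPKM. Neither gene's groups overlapped, and MAP1LC3B2, on few reads, had -0.95 without treated WT replicate 3 and -0.94 without treated ATG7 KO replicate 1, short of a log2 fold change of 1. GABARAPL2 differed by -0.58 (SE 0.05, adjusted p = 4.23e-12), at 20.4, 21.2 and 19.8 FPKM against 30.3, 30.7 and 30.6 FPKM. GABARAPL1 differed by -0.50 (SE 0.05, adjusted p = 6.77e-10), at 12.8, 13.1 and 12.0 FPKM against 17.72, 17.8 and 18.0 FPKM. For these genes too, all 3 ATG7 KO values were below all 3 WT values. GABARAP had -0.15 (adjusted p = 0.621) and was not called. SQSTM1 had 51.8, 52.1 and 53.2 FPKM in treated ATG7 KO and 53.0, 55.6 and 53.9 FPKM in treated WT libraries, which overlapped, and its difference of -0.06 (SE 0.03, adjusted p = 0.144) did not pass. With a correction for gene length SQSTM1 had -0.16 (adjusted p = 6.89e-05) and was called lower.

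In the ULK complex ULK1, ULK2 and ATG13 were higher, at 0.42, 0.36 and 0.21, whereas ATG101 was lower, at -0.69 (SE 0.08, adjusted p = 2.23e-09), at 7.39, 6.87 and 6.25 FPKM against 11.1, 11.5 and 10.4 FPKM. RB1CC1 (0.12) was not called. BECN1, the scaffold of the lipid kinase complex that BCL2 proteins bind, was lower, at -0.40, and PIK3C3 (-0.03), PIK3R4 (-0.04), ATG14 (0.02) and UVRAG (0.13) were not called. ATG2A was higher, at 0.77 (SE 0.05, adjusted p = 5.57e-14), at 12.1, 12.9 and 12.5 FPKM against 6.67, 7.43 and 7.76 FPKM, and ATG2B and ATG9A were higher, at 0.37 and 0.27. WIPI1 (0.08) and WIPI2 (-0.05) were not called. Each of ATG101 and ATG2A had groups that did not overlap.

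Of the conjugation genes, ATG10 was higher, at 0.76 (SE 0.17, adjusted p = 0.000297), at 1.10, 0.916 and 1.22 FPKM against 0.584, 0.679 and 0.640 FPKM, and so was ATG5, the partner of ATG12, at 0.21. ATG3, the E2-like enzyme of the ATG8 proteins, was lower, at -0.23. The 4 proteases did not go together: ATG4A was higher, at 0.69 (SE 0.09, adjusted p = 6.14e-08), ATG4B and ATG4D were lower, at -0.46 and -0.58, and ATG4C (0.21) was not called. ATG4A had 8.94, 8.05 and 8.82 FPKM in treated ATG7 KO and 4.83, 5.26 and 5.78 FPKM in treated WT libraries, without overlap. ATG12 (-0.03) and ATG16L1 (-0.08) were not called. Among receptors TAX1BP1 was higher, at 0.16, and CALCOCO2 was lower, at -0.17, and NBR1 (0.08) and OPTN (-0.05) were not called. With a correction for gene length the members called were 7 higher and 14 lower, in place of 10 and 10. Of all genes called with that correction, 48.8% were higher. There ATG2B (0.12, adjusted p = 0.242), TAX1BP1 (0.01, adjusted p = 0.784) and ATG13 (0.13, adjusted p = 0.0302) lost their calls, and PIK3C3 (-0.28, adjusted p = 2.37e-05), WIPI2 (-0.19, adjusted p = 0.000163), ATG12 (-0.18, adjusted p = 0.00162) and SQSTM1 were called lower. In the fit of all 12 libraries ATG2B, ATG3, ATG5, ATG9A, ATG10, ATG13, GABARAPL2, CALCOCO2 and TAX1BP1 lost their calls (adjusted p from 0.0177 to 0.295). ATG13 and TAX1BP1 lost theirs without treated WT replicate 1 (adjusted p = 0.0163 and 0.0191), CALCOCO2 without treated ATG7 KO replicate 1 or 2 (adjusted p = 0.0148 and 0.0269).

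**Figure D3:**
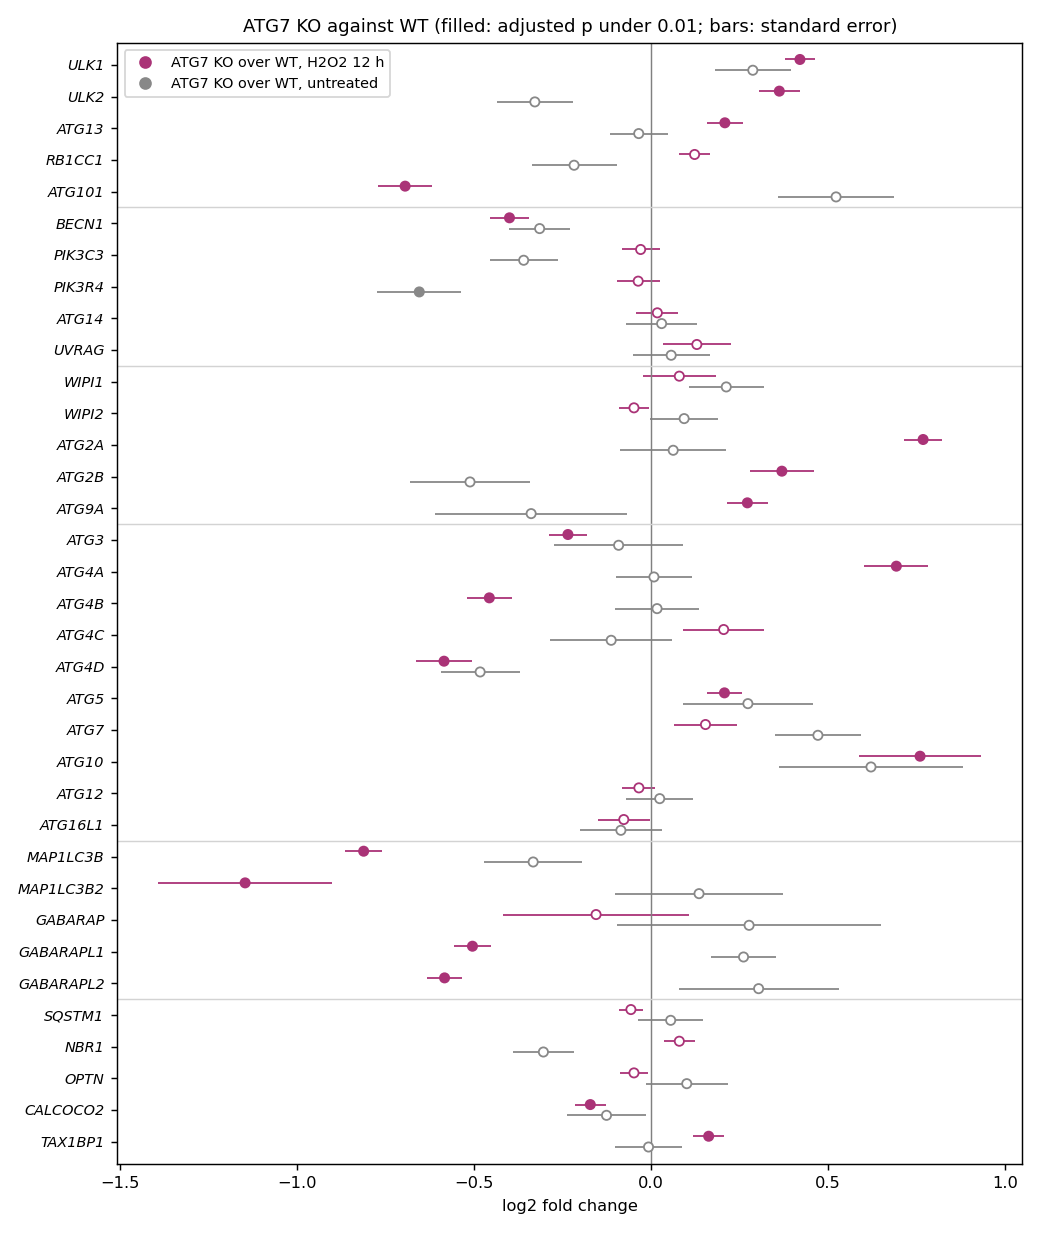
Log2 fold change of ATG7 KO over WT libraries (x axis, with standard error) for the 35 tested members, in treated and in untreated cells. Filled points have an adjusted p under 0.01, 20 members in treated and 1 member (PIK3R4) in untreated cells, and the ATG8 genes lie left of 0 in treated cells.

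In untreated cells 1 of 35 members was called between the lines (2.86%, against 7.7% of all 15357 genes), 0 higher (4.42% of all genes were) and 1 lower (3.28% of all genes were), and 13 had an unadjusted p under 0.05 (37.1%, against 32.9% of all genes). None was beyond a log2 fold change of 1 (3.5% of all genes were called and beyond it), and 14 of the 35 did not overlap between the lines (40%, against 45.3% of all genes). The median was 0.02, against 0.01 over all genes. PIK3R4 was lower, at -0.65 (SE 0.12, adjusted p = 0.0099), at 6.23, 7.47 and 7.72 FPKM in ATG7 KO against 12.0, 11.1 and 10.6 FPKM in WT libraries, without overlap. Its call was lost without any of the WT replicates and without ATG7 KO replicate 2 or 3 (adjusted p up to 0.0596), and under RLE scaling, limma or a stricter count filter (adjusted p from 0.0101 to 0.0119). Without ATG7 KO replicate 1, 17 members were called (48.6%, against 36.2% of all genes), 6 higher and 11 lower. Of all genes called there, 50.4% were higher. Of the members, 19 had an unadjusted p under 0.05 (54.3%, against 50.6%) and 0 were called beyond a log2 fold change of 1 (4.32% of all genes were). Values did not overlap for 20 (57.1%, against 61%), and the median was -0.03, against -0.0049 over all genes. In that fit GABARAPL1 (0.21), ULK1 (0.37), ATG101 (0.34), WIPI1 (0.25), ATG2A (0.21) and ATG7 were higher. MAP1LC3B was lower, at -0.48 (adjusted p = 1.15e-10), whereas with all libraries it had -0.33 (adjusted p = 0.145). ULK2 (-0.25), BECN1 (-0.31), PIK3C3 (-0.30), PIK3R4 (-0.56), ATG2B (-0.34), ATG3 (-0.33), ATG4C (-0.33), ATG4D (-0.53), NBR1 (-0.29) and CALCOCO2 (-0.23) were lower. SQSTM1 was not called with all libraries (0.06, adjusted p = 0.699) or without that library (0.02, adjusted p = 0.752).

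Whether the response to H2O2 differed between the lines was tested as an interaction over all 12 libraries, with differences given as ATG7 KO minus WT on the log2 scale. Of 35 members, 8 were called (22.9%, against 14% of all 16856 genes), 6 higher (7.02% of all genes were) and 2 lower (7.01% of all genes were). Without untreated ATG7 KO replicate 1, 18 were called (51.4%, against 34.1% of all genes), 12 higher and 6 lower, and these held all 8. Of all genes called in that fit, 52.3% were higher. With a correction for gene length 3 were called higher and 3 lower, in place of 6 and 2.

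ATG101 differed by -1.21 (SE 0.19, adjusted p = 0.00073) and was the 1 called member past a difference of 1 (2.86%, against 5.17% of all genes). Without untreated ATG7 KO replicate 1 there were 2, ATG101 and MAP1LC3B2 (5.71%, against 5.1% of all genes). It rose by 1.13 in WT cells and had a log2 fold change of -0.08 (adjusted p = 0.729) in ATG7 KO cells (0.11, adjusted p = 0.296, without that library), where it had 9.04, 6.32 and 6.25 FPKM in untreated ATG7 KO and 7.39, 6.87 and 6.25 FPKM in treated ATG7 KO libraries. The untreated and treated ATG7 KO libraries overlapped, and untreated replicate 1 was the highest of the 6. Without that library the difference was -1.01 (adjusted p = 4.31e-11). GABARAPL1 differed by -0.76 (SE 0.10, adjusted p = 0.000296) and by -0.70 (adjusted p = 4.93e-13) without that library. It fell in both lines, by 0.17 in WT, from 19.3, 19.8 and 20.7 FPKM to 17.72, 17.8 and 18.0 FPKM, and by 0.93 in ATG7 KO cells.

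The members with a positive difference fell in WT cells or, for ATG4A, were not called there. ATG2B differed by 0.89 (SE 0.19, adjusted p = 0.00451), with 1.12, 1.66 and 1.66 FPKM in untreated ATG7 KO and 1.34, 1.48 and 1.46 FPKM in treated ATG7 KO libraries. ATG2A had 0.71 (SE 0.16, adjusted p = 0.00698), with 9.87, 14.2 and 13.5 FPKM in untreated ATG7 KO and 12.1, 12.9 and 12.5 FPKM in treated ATG7 KO libraries. In both genes untreated replicate 1 was the lowest of the untreated ATG7 KO libraries, and without it the differences were 0.73 (adjusted p = 4.81e-07) and 0.57 (adjusted p = 2.73e-10). ULK2 had 0.70 (SE 0.13, adjusted p = 0.00182), with 4.76, 5.49 and 5.70 FPKM in untreated ATG7 KO and 6.67, 6.71 and 6.40 FPKM in treated ATG7 KO libraries that did not overlap. ATG4A had 0.69 (adjusted p = 0.00317), PIK3R4 0.63 (adjusted p = 0.00435) and NBR1 0.39 (adjusted p = 0.00769). In WT cells ATG4A had 5.78, 5.57 and 5.31 FPKM before and 4.83, 5.26 and 5.78 FPKM after treatment, which overlapped. PIK3R4 had 12.0, 11.1 and 10.6 FPKM and 9.31, 8.34 and 8.28 FPKM in WT cells, and 6.23, 7.47 and 7.72 FPKM and 8.44, 8.35 and 8.65 FPKM in ATG7 KO cells, so it moved down in the first line, and its treated values lay above its untreated ones in the second. The NBR1 difference was 0.14 (adjusted p = 0.347) with a correction for gene length, which also ended the calls of ULK2 (0.38, adjusted p = 0.0177) and ATG2B (0.43, adjusted p = 0.012), while ATG4B (-0.62, adjusted p = 0.00812) was called lower. When untreated ATG7 KO replicate 1 was left out, ULK2 had 0.63, ATG4A 0.76, PIK3R4 0.54 and NBR1 0.39, all called. Leaving out 1 of several other libraries also ended the calls of NBR1, ATG2A, PIK3R4, ATG2B and ATG4A, with adjusted p up to 0.0269, 0.0239, 0.0148, 0.015 and 0.0115.

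Every tested ATG8 gene had a negative difference, from -0.43 for GABARAP to -1.27 for MAP1LC3B2. Without untreated ATG7 KO replicate 1 the differences ran from -0.31 for MAP1LC3B to -1.20 for MAP1LC3B2. The median over all genes was -0.03 with and -0.01 without that library, and the share of all genes below 0 was not counted. With all libraries GABARAPL1 was the 1 gene of the 5 that passed (20%, against 7.01% of all genes called lower). For MAP1LC3B the value was -0.47 (SE 0.16, adjusted p = 0.0391), and -0.31 (adjusted p = 0.00178) without untreated ATG7 KO replicate 1. GABARAPL2 had -0.88 (adjusted p = 0.0182) and -0.54 (adjusted p = 2.39e-09), and MAP1LC3B2 had -1.27 (adjusted p = 0.0192) and -1.20 (adjusted p = 0.00954), in the same order. GABARAP, in which that library was the lowest of its group, had -0.43 (adjusted p = 0.472) with it and -0.71 (adjusted p = 0.14) without it, and passed in neither fit. GABARAPL2 had 47.6, 26.2 and 27.0 FPKM in untreated ATG7 KO and 20.4, 21.2 and 19.8 FPKM in treated ATG7 KO libraries, with untreated replicate 1 far above the other 5. SQSTM1 differed by -0.11 (SE 0.09, adjusted p = 0.41), and by -0.06 (adjusted p = 0.434) without that library, and passed in neither fit.

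**Figure D4:**
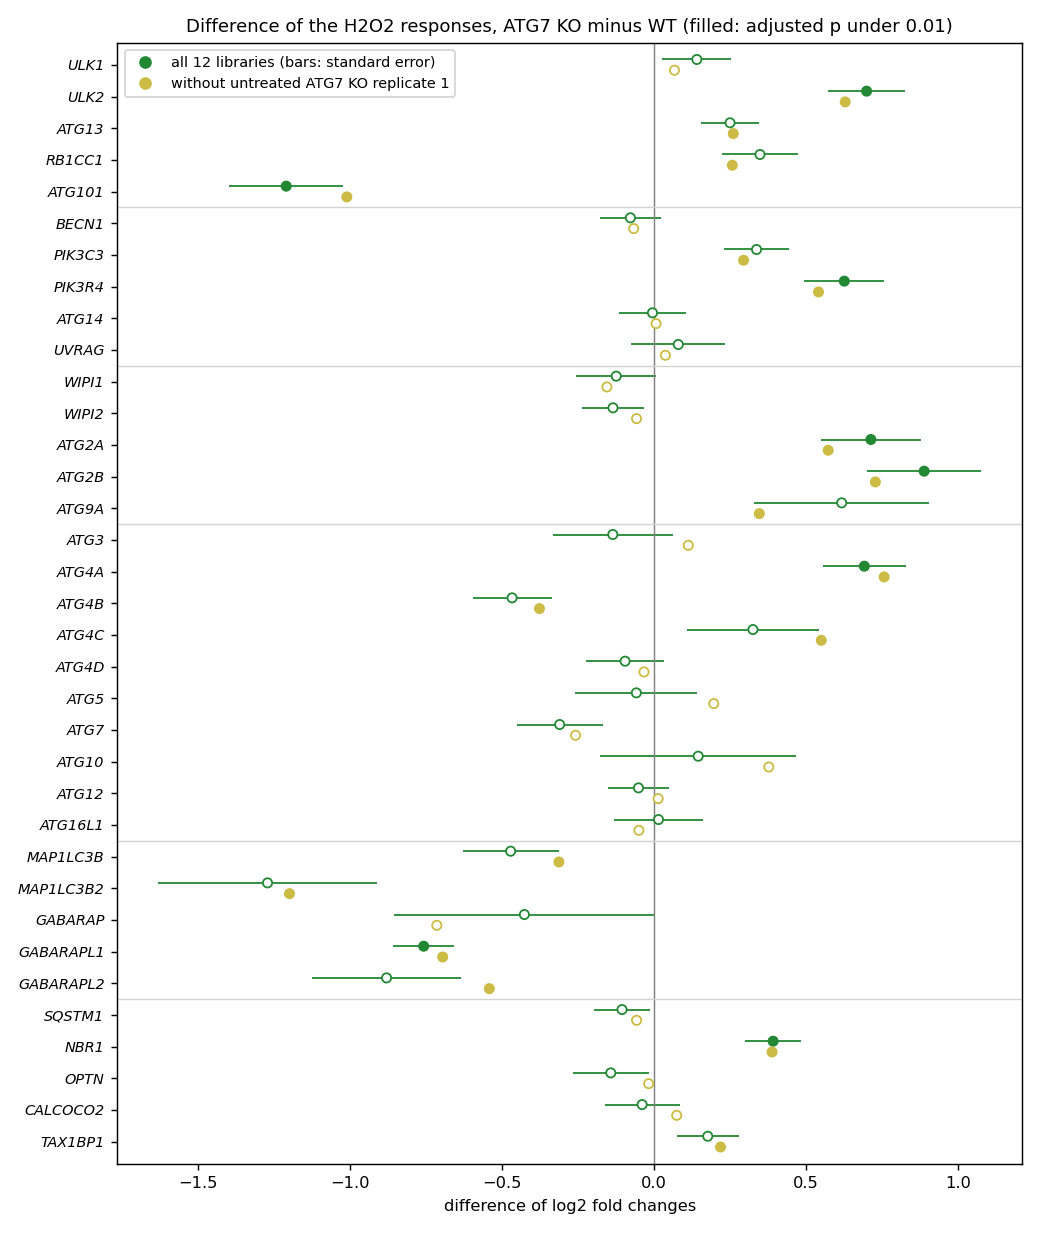
Difference of the H2O2 responses, ATG7 KO minus WT, on the log2 scale (x axis) for the 35 tested members, over all 12 libraries with the standard error and again without untreated ATG7 KO replicate 1. Filled points have an adjusted p under 0.01, 8 members with and 18 without that library, and ATG3, ATG5, ATG12, ATG14, ATG16L1 and CALCOCO2, none of them called, lie on different sides of 0 in the 2 fits.

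Summed over the 6 ATG8 genes, untreated WT libraries had 59.2 ± 2.23 FPKM (SD, n = 3) and treated WT libraries 71.4 ± 0.753 FPKM. Untreated ATG7 KO libraries had 67.8 ± 15 FPKM, where replicate 1 had 85.1 FPKM and the other two 58.9 and 59.4 FPKM, and treated ATG7 KO libraries had 46.4 ± 1.58 FPKM. The treated groups did not overlap with each other, and treated ATG7 KO libraries were below all 9 others. GABARAPL2 held the largest share in every group, with group means from 42.8% to 48.7%. The MAP1LC3B share was 17.6% ± 0.836 in untreated and 27.9% ± 1.71 in treated WT libraries, and 12.3% ± 0.524 and 24.6% ± 0.726 in ATG7 KO libraries, so it was higher after treatment in both lines, without overlap. The GABARAPL1 share was 33.7% ± 1.18 and 25.0% ± 0.443 in WT, and 36% ± 4.90 and 27.2% ± 0.369 in ATG7 KO libraries, where untreated replicate 1 had 30.4% and the other two 39.3% and 38.5%. These shares are a description, and GABARAP counts toward the sum with its uncertain level.

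**Figure D5:**
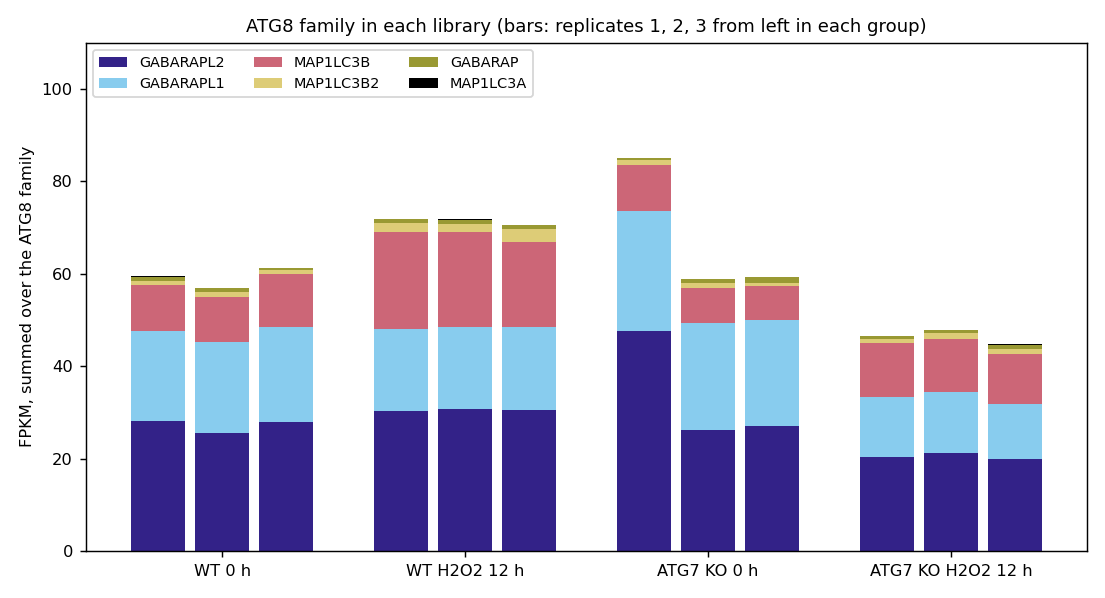
FPKM of the 6 ATG8 genes stacked in each library (y axis starting at 0, replicates 1 to 3 from left in each group). The sum was highest in untreated ATG7 KO replicate 1 and lowest in the 3 treated ATG7 KO libraries, and the MAP1LC3B segment was largest in treated WT libraries.

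A list of 68 other genes of the pathway was read beside the members. In treated WT cells 23 rose and 29 fell of 65 tested (80%, beside 61% of all genes). SESN1 (3.05) and SESN2 (2.76), sestrins that restrain mTORC1, and DDIT4 (2.90), another mTORC1 inhibitor, had the largest rises in log2 fold change. The largest falls were those of MITF (-1.19), a transcription factor related to TFEB, and of EPG5 (-1.04) and VPS41 (-0.98), which tether and fuse vesicles. Of the 14 fusion genes, 3 rose and 9 fell among 13 tested (92.3%, beside 61% of all genes, where 30.9% rose and 30.1% fell). Upstream signalling genes were called at a similar share (93.8%), with 7 that rose and 8 that fell. The share was 85.7% for transcription, 66.7% for initiation and membrane, and 64.7% for other receptors and adaptors. In treated ATG7 KO cells 9 rose and 8 fell of 66 tested (25.8%, beside 26% of all genes). Among those called, SESN1 (3.04), TP53INP1 (2.93) and SESN2 (2.72) were at the top and PINK1 (-1.39), VPS16 (-1.09) and CALCOCO1 (-0.83) at the bottom. Without untreated ATG7 KO replicate 1, 21 rose and 26 fell (71.2%, beside 58.4% of all genes, and 51% of all genes called rose). In that fit SESN1 was at 3.15, TP53INP1 at 2.81, SESN2 at 2.60, PINK1 at -1.48, VPS16 at -1.07 and CALCOCO1 at -0.98.

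Between the treated lines 21 of the other genes were higher and 18 lower in ATG7 KO cells, of 66 tested (59.1%, beside 55.6% of all genes). Highest were WDFY3 (0.76), an adaptor for aggregates, PRKAA2 (0.66), an AMPK catalytic subunit, and MTOR (0.66). Lowest were DDIT4 (-2.01), DDIT3 (-1.27), a stress transcription factor, and VPS16 (-0.95). In untreated cells PINK1, the mitophagy kinase, was the 1 gene called of 65 tested (1.54%, beside 7.7% of all genes), at 0.83. Without ATG7 KO replicate 1, 9 were higher and 18 lower (41.5%, beside 36.2% of all genes), PINK1 among them at 0.91. Of all genes called there, 50.4% were higher. For the interaction 9 were higher and 5 lower of 66 tested (21.2%, beside 14% of all genes). Among the genes called, the largest positive differences were those of PRKAA2 (1.29), MITF (1.15) and RUBCN (0.96), an inhibitor of the lipid kinase complex. The largest negative ones among those called were those of DDIT4 (-1.96), ATF4 (-0.78) and PINK1 (-0.73). In the fit that left out untreated ATG7 KO replicate 1, 16 were higher and 10 lower (39.4%, beside 34.1% of all genes, of which 52.3% higher). Those 6 genes then had 1.13, 1.03, 0.82, -1.99, -0.55 and -0.81 in the order named.

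Position along the chromosomes was compared because stretches had moved together between the lines in earlier results of these data. The choice of members did not use position, but what follows is a description and no test. For each member the 10 tested genes on either side were taken in the comparison of treated ATG7 KO with treated WT cells. The neighbours' median had the sign of the member for 7 of the 10 members called higher and 8 of the 10 called lower (70% and 80%, against 64.8% and 59.6% of all genes called higher and lower), and for 9 of the 15 not called (60%, against 53.1%). Examples were chosen after their values were seen. ATG4D lies on chromosome 19, and all 20 of its neighbours were below 0, with a median log2 fold change of -0.67 beside its own -0.58. BECN1 had 18 of 20 neighbours below 0 (median -0.35, own value -0.40) and MAP1LC3B had 15 of 20 (median -0.54, own value -0.81). NBR1, not called itself, had 17 of 20 below 0 (median -0.45). BECN1 and NBR1 lie near each other on chromosome 17 (starts at 42810134 and 43170481), so their neighbours may be partly the same genes. ATG4A on chromosome X had 15 of 20 above 0 (median 0.46, own value 0.69). By contrast GABARAPL2 had 10 of 20 on each side of 0, ATG2A had 11 below and 9 above, and MAP1LC3B2 (own value -1.15) had 15 of 20 above 0. In untreated cells PIK3R4 had 19 of 20 neighbours below 0 (median -0.40). Whether the neighbourhood has a part in a member's difference was not tested.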

How the data were processed

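The authors deposited raw counts, whole numbers of reads per gene, and FPKM values, which they made from those counts by gene length and library size, for 58735 genes in 12 libraries, with a gene length beside each gene. Per the labels, the submitters' processing notes name HISAT2 2.0.5, featureCounts 1.5.0-p3 and GRCh38. The strand setting and the treatment of multi-mapping reads are not given in the sources used here. The coordinates and lengths of the 36 members are those of GENCODE 29.

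Libraries had 15602183 to 17659496 reads (median 17205174). At these similar depths the spread of 3 replicates limits precision, as does the count itself where it is low. Counts were tested with edgeR 4.0.16 (R 4.3.3): filterByExpr with a minimum count of 10, TMM, robust glmQLFit and glmQLFTest. Each comparison used its own 6 libraries and the interaction all 12. The p-values were adjusted by Benjamini-Hochberg over all genes tested and called under 0.01. Standard errors were computed from the fold change and test statistic. FPKM values are printed as deposited. The fits were tested on simulated data with 200 changed genes. Those data took their means from untreated WT cells and their spread from the WT response fit, whose common coefficient of variation was 0.047. It was 0.162 between the untreated lines, 0.161 in the ATG7 KO response and 0.12 in the interaction. The simulation therefore does not cover a library that stands apart, such as untreated ATG7 KO replicate 1.

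The members and lists were chosen with earlier results of these data known. Values in every library are given for ATG7, SQSTM1 and MAP1LC3B and for the called members with the 5 largest absolute log2 fold changes in each comparison. Of the other autophagy genes, the called genes with the 3 highest and 3 lowest values are named. GABARAPL2 was added to the former after its values were seen. Alternatives were DESeq2 1.42.0, RLE scaling, 2 other filters on low counts, fits of all 12 libraries, a block for replicate number, a correction for gene length (lowess span 0.3), limma 3.58.1 on log2(FPKM + 1), a threshold of 0.05, and each library left out in turn. Replicate numbers did not pair the libraries. MAP1LC3A failed the filter on low counts.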

Additional observations from a re-analysis of the deposited data

Results flagged for a closer look

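By the interaction term of edgeR's quasi-likelihood test over all 12 libraries, the H2O2 response differed between the lines for 8 of 35 members. That is 22.9%, against 14% of all genes. Differences are given as ATG7 KO minus WT on the log2 scale. The difference was 0.70 for ULK2 (adjusted p = 0.00182), 0.63 for PIK3R4 (adjusted p = 0.00435), 0.71 for ATG2A (adjusted p = 0.00698), 0.89 for ATG2B (adjusted p = 0.00451), 0.69 for ATG4A (adjusted p = 0.00317) and 0.39 for NBR1 (adjusted p = 0.00769). It was -1.21 for ATG101 (adjusted p = 0.00073) and -0.76 for GABARAPL1 (adjusted p = 0.000296). All 8 kept their direction and passed without untreated ATG7 KO replicate 1, a fit in which 34.1% of all genes passed. Over 20 alternative settings the call was lost in 12 for NBR1, 10 for ATG2A and 7 each for PIK3R4 and ATG2B. It was lost in 5 for ATG4A and in 1 for ULK2. ATG101 and GABARAPL1 kept their calls in all 20.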

How the results depend on the processing

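Of 70 results for single members in a comparison, 0 reversed under any alternative. They were the called members with ATG7, SQSTM1 and MAP1LC3B, so a reversal was unlikely from the start. Members outside that set did change sign between the treated lines. PIK3C3 went from -0.03 to 0.0017 without a filter on low counts, and GABARAP from -0.15 to 0.0056 with the gene length correction. DESeq2 kept the side of the threshold for 67, RLE scaling for 69, the gene length correction for 58, limma on log2(FPKM + 1) for 63 and the fit of all 12 libraries for 43 of 59. Without a filter on low counts the median over all genes moved to -0.12 between the treated lines, 0.20 in the WT response and -0.12 in the interaction. Replicate numbers did not pair the libraries (r from -0.042 to 0.096 over 12 pairs). With the replicate block, members lower between the untreated lines numbered 0, and in the ATG7 KO response 0 were higher and 4 lower. The precision is limited by 3 replicates, by untreated ATG7 KO replicate 1, and by few reads for MAP1LC3B2 and GABARAP.

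Between the untreated lines (0 higher, 1 lower as reported), DESeq2 gave 1 higher and 5 lower, RLE scaling 0 lower, at least 10 counts in every library 0 lower, all 12 libraries 1 and 6, the gene length correction 1 and 2, limma 0 lower, and a threshold of 0.05 gave 1 and 5. Left-out libraries gave 0 to 6 higher and 0 to 11 lower, the highest without ATG7 KO replicate 1. Between the treated lines (10 and 10), all 12 libraries gave 4 higher, and members also beyond a log2 fold change of 1 (1 as reported) numbered 0 with the gene length correction and with limma, and 0 to 1 without single libraries (0 without treated WT replicate 3 or treated ATG7 KO replicate 1). In the WT response limma gave 2 such members in place of 4. In the ATG7 KO response (2 and 5), all 12 libraries gave 5 and 12, a threshold of 0.05 gave 6 and 12, DESeq2 8 lower and the gene length correction 8 lower. Left-out libraries gave 0 to 8 higher and 2 to 14 lower, with 0 higher without any of the 5 other libraries, 3, 2 and 3 lower without treated ATG7 KO replicates 1, 2 and 3, and the highest counts without untreated ATG7 KO replicate 1. Those beyond a log2 fold change of 1 (1) numbered 0 with the gene length correction, 0 with limma and 0 to 1 without single libraries (0 without treated ATG7 KO replicate 1). In the interaction (6 and 2) the gene length correction gave 3 higher, DESeq2 5 lower and a threshold of 0.05 gave 6 lower. Left-out libraries gave 1 to 12 higher and 2 to 6 lower, the highest without untreated ATG7 KO replicate 1. All other left-out libraries but untreated ATG7 KO replicates 2 and 3 and treated WT replicate 3 gave 1 to 3 higher. Those past a difference of 1 (1) numbered 2 with DESeq2, 2 at a threshold of 0.05 and 1 to 2 without single libraries. The causes were not tested.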
